A study of Mus musculus with 4 samples.

Results

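The genes of glycolysis and of the response to low oxygen were described in C3H10T1/2 cells, a mouse embryo-derived line of mesenchymal stem cells (MSCs), across 4 RNA-seq libraries. The set was a list of 38 gene symbols covering glucose and lactate transport, the glycolytic enzymes, switches of glycolytic flux, the hypoxia-inducible factor (HIF) subunits, the HIF prolyl hydroxylases and other hypoxia response genes. Every symbol was found in the deposited table, in 39 of its 54532 gene rows, because Aldoa was listed under a pair of gene identifiers. Levels are in CPM (a count of 1 in 1000000 counts of the library after scaling), except that the level filter used the totals before scaling. A mean of at least 1 CPM by those totals was reached by 37 of these rows and by 13233 rows in all, while Aldoc and Egln3 stayed below it. The symbols were chosen by measured levels of these same libraries as well as by pathway, among them the low Ak4 level after osteoblast (OB) induction, so the differences below are descriptions and were not tested.

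All cells were grown in the same medium and transfected for 48 h. The control group received a control siRNA and the siDNMT1 group an siRNA of DNMT1, the enzyme that copies DNA methylation after replication. The OB group (control siRNA) and the siDNMT1_OB group (siRNA of DNMT1) were then kept for 3 days in medium with 50 µM ascorbic acid, 10 mM glycerophosphate and dexamethasone, whereas the other groups were left untreated. Each group held 1 library from 1 cell line, so no difference had a replicate check. The intervals below are exact (Clopper-Pearson or Poisson) 95% intervals, except that the interval of a difference of ratios combines those of both ratios. All of them cover counting error only, so they are narrower for genes with more counts. Shares of all genes given beside counts of intervals were not matched for depth.

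Glycolysis splits glucose into pyruvate through a chain of cytosolic enzymes, and lactate dehydrogenase turns pyruvate into lactate when it is not passed to the mitochondria. Under normal oxygen the HIF alpha subunits are hydroxylated by the EGLN enzymes and degraded. Under low oxygen they pair with ARNT, bind DNA at sites with the core letters ACGTG and switch on glycolytic, angiogenic and mitophagy genes. Osteoblast precursors are known for a high rate of lactate production, and HIF signalling in this lineage couples bone formation to blood vessel growth.

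The total counts lay between 22296046 (OB) and 27367792 (control). Dnmt1 itself stood at 265 CPM in control (7195 counts), 132 CPM in siDNMT1 (3375 counts), 85.4 CPM in OB (1931 counts) and 93.1 CPM in siDNMT1_OB (2492 counts). Its log2 ratio was -1.01 (interval -1.07 to -0.95) for siDNMT1 against control, but 0.13 (0.04 to 0.21) for siDNMT1_OB against OB, so the library labelled siDNMT1_OB held no less Dnmt1 than its OB counterpart. The target gene thus goes against that label at the transcript level, and the cause was not tested. DNMT1 protein and DNA methylation, which the study also examined in induced cells, were not analysed here. By western blotting the study reported less DNMT1 protein in siRNA-treated cells after a longer induction. It also reported more hypomethylated than hypermethylated regions with DNMT1 siRNA, a disparity that was larger after early OB differentiation. Below, siDNMT1_OB is the library labelled so, and its ratio to OB compares those libraries without assigning the difference to a knockdown. Mesenchymal markers were present (11 of 12 passed the filter, with Col1a1 at 205939 counts or more in each library). Of 9 osteoblast markers 4 passed the filter, and their list summed to 636, 309, 291 and 367 CPM in control, siDNMT1, OB and siDNMT1_OB. For OB against control the log2 ratio was -1.55 for Spp1 (548 CPM in control), -2.81 for Dmp1, 1.68 for Phex and -0.06 for Runx2. Sp7 and Ibsp had at most 8 and 17 counts in a library, and Alpl, Bglap and Bglap2 at most 3. Of the epithelial, endothelial and blood cell markers, only Cd68 and Tek passed the filter. The glucocorticoid-responsive genes were higher after OB induction, 7 of 9 with a log2 ratio of at least 1. The 14 proliferation genes were all lower in OB than in control by at least 1 on the log2 scale (median -2.22), and their summed level was 88.2% (siDNMT1), 21.5% (OB) and 41.8% (siDNMT1_OB) of control. In bulk RNA, fewer cells that carry a transcript and less of it per cell cannot be told apart.

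Promoter windows of 300 bases (250 before and 50 after an annotated start, RefSeq, GRCm38.p6) were found for 35 of the 38 members, with Ero1l matched through its synonym. The letters ACGTG, read on both strands, stood in at least 1 window of 24 of these 35 genes (68.6%), compared with 21.8% of all 27025 genes with a window and 29.6% of the 9590 with a window that passed the level filter. By window the letters were found in 28 of 56 (50%), against 19.6% of all 32851 windows. A match describes letters and is not evidence of binding. The 6 windows below were chosen to show these letters, so all of them hold a match, in members whose levels are described later. They show the 250 bases before the start, 5′ to 3′ on the strand of the gene, with ACGTG or its reverse complement CACGT in capitals; CACGTG holds both. Ldha lies at chr7:46845554-46845803 (plus strand), Pgk1 at chrX:106186850-106187099 (plus), Aldoa at chr7:126799255-126799504 (minus, from the second of its annotated starts), Slc2a1 at chr4:119108495-119108744 (plus), Bnip3 at chr7:138909507-138909756 (minus) and Ak4 at chr4:101419453-101419702 (plus, from the fourth of its starts, since the other windows of Ak4 held no match).
Ldha: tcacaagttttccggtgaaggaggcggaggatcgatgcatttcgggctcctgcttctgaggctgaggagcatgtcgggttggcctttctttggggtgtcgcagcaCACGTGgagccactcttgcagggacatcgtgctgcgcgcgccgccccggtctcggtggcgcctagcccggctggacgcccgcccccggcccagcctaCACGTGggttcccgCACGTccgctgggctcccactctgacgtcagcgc
Pgk1: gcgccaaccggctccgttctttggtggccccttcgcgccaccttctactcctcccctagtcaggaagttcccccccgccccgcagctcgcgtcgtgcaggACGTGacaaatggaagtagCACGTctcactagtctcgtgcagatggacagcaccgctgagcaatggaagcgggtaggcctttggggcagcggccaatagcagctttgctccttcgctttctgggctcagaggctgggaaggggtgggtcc
Aldoa: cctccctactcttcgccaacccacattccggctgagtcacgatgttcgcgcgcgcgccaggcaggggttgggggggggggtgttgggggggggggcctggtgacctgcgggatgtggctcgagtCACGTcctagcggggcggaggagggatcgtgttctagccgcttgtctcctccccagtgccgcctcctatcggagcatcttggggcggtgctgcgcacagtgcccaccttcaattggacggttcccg
Slc2a1: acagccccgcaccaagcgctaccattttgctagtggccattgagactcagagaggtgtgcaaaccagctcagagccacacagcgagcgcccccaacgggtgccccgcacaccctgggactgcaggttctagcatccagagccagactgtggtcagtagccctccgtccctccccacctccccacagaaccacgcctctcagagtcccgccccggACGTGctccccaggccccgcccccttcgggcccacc
Bnip3: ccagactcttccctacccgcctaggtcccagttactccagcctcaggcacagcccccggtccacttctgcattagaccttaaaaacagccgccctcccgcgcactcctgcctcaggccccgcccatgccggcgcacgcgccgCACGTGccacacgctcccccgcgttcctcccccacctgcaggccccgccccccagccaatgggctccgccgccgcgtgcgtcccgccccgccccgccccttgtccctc
Ak4: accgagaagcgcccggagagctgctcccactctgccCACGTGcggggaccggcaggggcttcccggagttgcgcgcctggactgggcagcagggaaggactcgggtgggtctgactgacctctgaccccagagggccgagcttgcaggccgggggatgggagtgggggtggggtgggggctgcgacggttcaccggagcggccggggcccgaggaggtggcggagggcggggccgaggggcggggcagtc
Ldha carried the letters in 3 separate places and Pgk1 in a pair of places, on opposite strands. The Bnip3 and Ak4 windows each held 1 CACGTG. No window of the other 11 members (Gpi1, Pfkl, Pfkp, Tpi1, Eno1, Eno2, Ldhb, Pfkfb4, Pdk1, Kdm3a and Adm) held the letters, and Gapdh, Hk1 and Aldoc held them only after a start. The 24 members with the letters include Aldoc and Egln3, which did not pass the level filter. The median log2 ratio of OB against control was -0.81 over these 24 and -0.59 over the 11 without the letters. Among those without them, Pfkl, Eno1, Tpi1, Pdk1 and Gpi1 had ratios from -1.93 to -1.42, and Pfkp, Kdm3a and Eno2 from -0.59 to -0.39. Pfkfb4, Ldhb and Adm, also without them, were at 0.01, 0.98 and 1.85. For siDNMT1 against control the medians were -0.55 with the letters and -0.23 without, and for siDNMT1_OB against OB 0.04 and -0.02.

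The summed level of the glycolytic enzymes was highest in the control library and lower in the other 3. The 18 rows of glycolytic enzymes summed to 12054 CPM in control, 6462 CPM in siDNMT1, 4258 CPM in OB and 4367 CPM in siDNMT1_OB. Relative to control these sums were 53.6%, 35.3% and 36.2%. Of the 17 enzyme rows that passed the filter, 11 were highest in control, while Hk1, Hk2, Pfkm and Ldhb were highest in OB and Pfkp and Eno2 in siDNMT1. The sums of both induced libraries lay close together, whereas those of both untreated libraries lay far apart. Among the 37 member rows that passed the filter, 23 had their highest level in control, beside 30.1% of all genes, and 4 in siDNMT1, beside 20.6%. The level was highest in OB for 9 rows, beside 30.5% of all genes, and in siDNMT1_OB for 1 row, beside 18.9%. The lowest level fell in OB for 17 rows, beside 32.2% of all genes, in siDNMT1 for 8, beside 21.3%, in siDNMT1_OB for 8, beside 16.1%, and in control for 4, beside 30.5%.

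**Figure D1:**
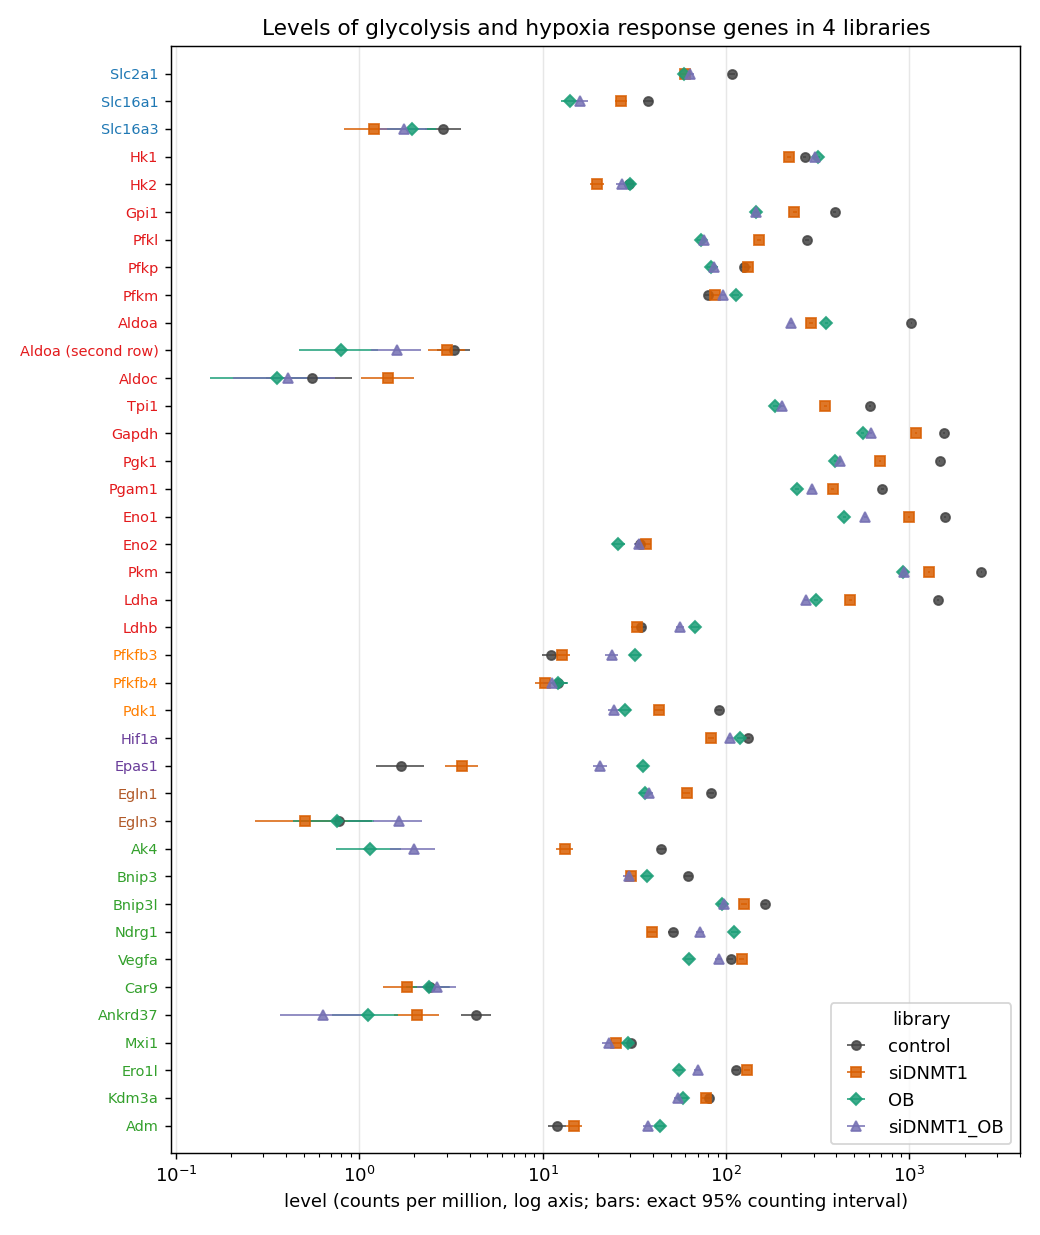
Level of each member row in CPM (horizontal, log axis) in control (grey circles), siDNMT1 (orange squares), OB (green diamonds) and siDNMT1_OB (purple triangles), with exact 95% counting intervals and gene names coloured by role. Most glycolytic enzymes show the control library farthest right, Pkm at 2465 CPM for example, with Ldhb, Pfkfb3, Epas1, Ndrg1 and Adm to the right in the OB libraries.

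A member was counted as higher or lower from a log2 ratio of 1 in either direction. The study combined a fold change of this size with a p-value, and only the size was applied here. For siDNMT1 against control, 8 of 37 member rows were lower and 1 was higher, beside 1.37% and 1.97% of all 13233 genes, and the median log2 ratio was -0.49 (-0.00 over all genes). The lower rows were Slc16a3, Aldoa, Pgk1, Ldha, Pdk1, Ak4, Bnip3 and Ankrd37, and the higher one was Epas1. For siDNMT1_OB against OB no row was higher or lower by that size, beside 2.36% and 1.37% of all genes, and the median was -0.02 (0.01 over all genes). The counting interval of 10 rows lay above 0 there, beside 27.6% of all genes, that of 14 below 0, beside 23.6%, and that of 13 held 0, beside 48.8%. For OB against control 17 rows were lower and 4 higher, beside 7.1% and 10.6% of all genes, with a median of -0.78 (0.01 over all genes). The lower rows took in 11 of the 17 enzyme rows that passed the filter, and the higher ones were Pfkfb3, Epas1, Ndrg1 and Adm. For siDNMT1_OB against siDNMT1 3 rows were lower and 2 higher, beside 2.71% and 6.83% of all genes, with a median of -0.37 (0.00 over all genes). The lower rows were Pfkl, Ak4 and Ankrd37, and the higher ones Epas1 and Adm. These pairs of comparisons share libraries, and the members were listed with these ratios known.

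**Figure D2:**
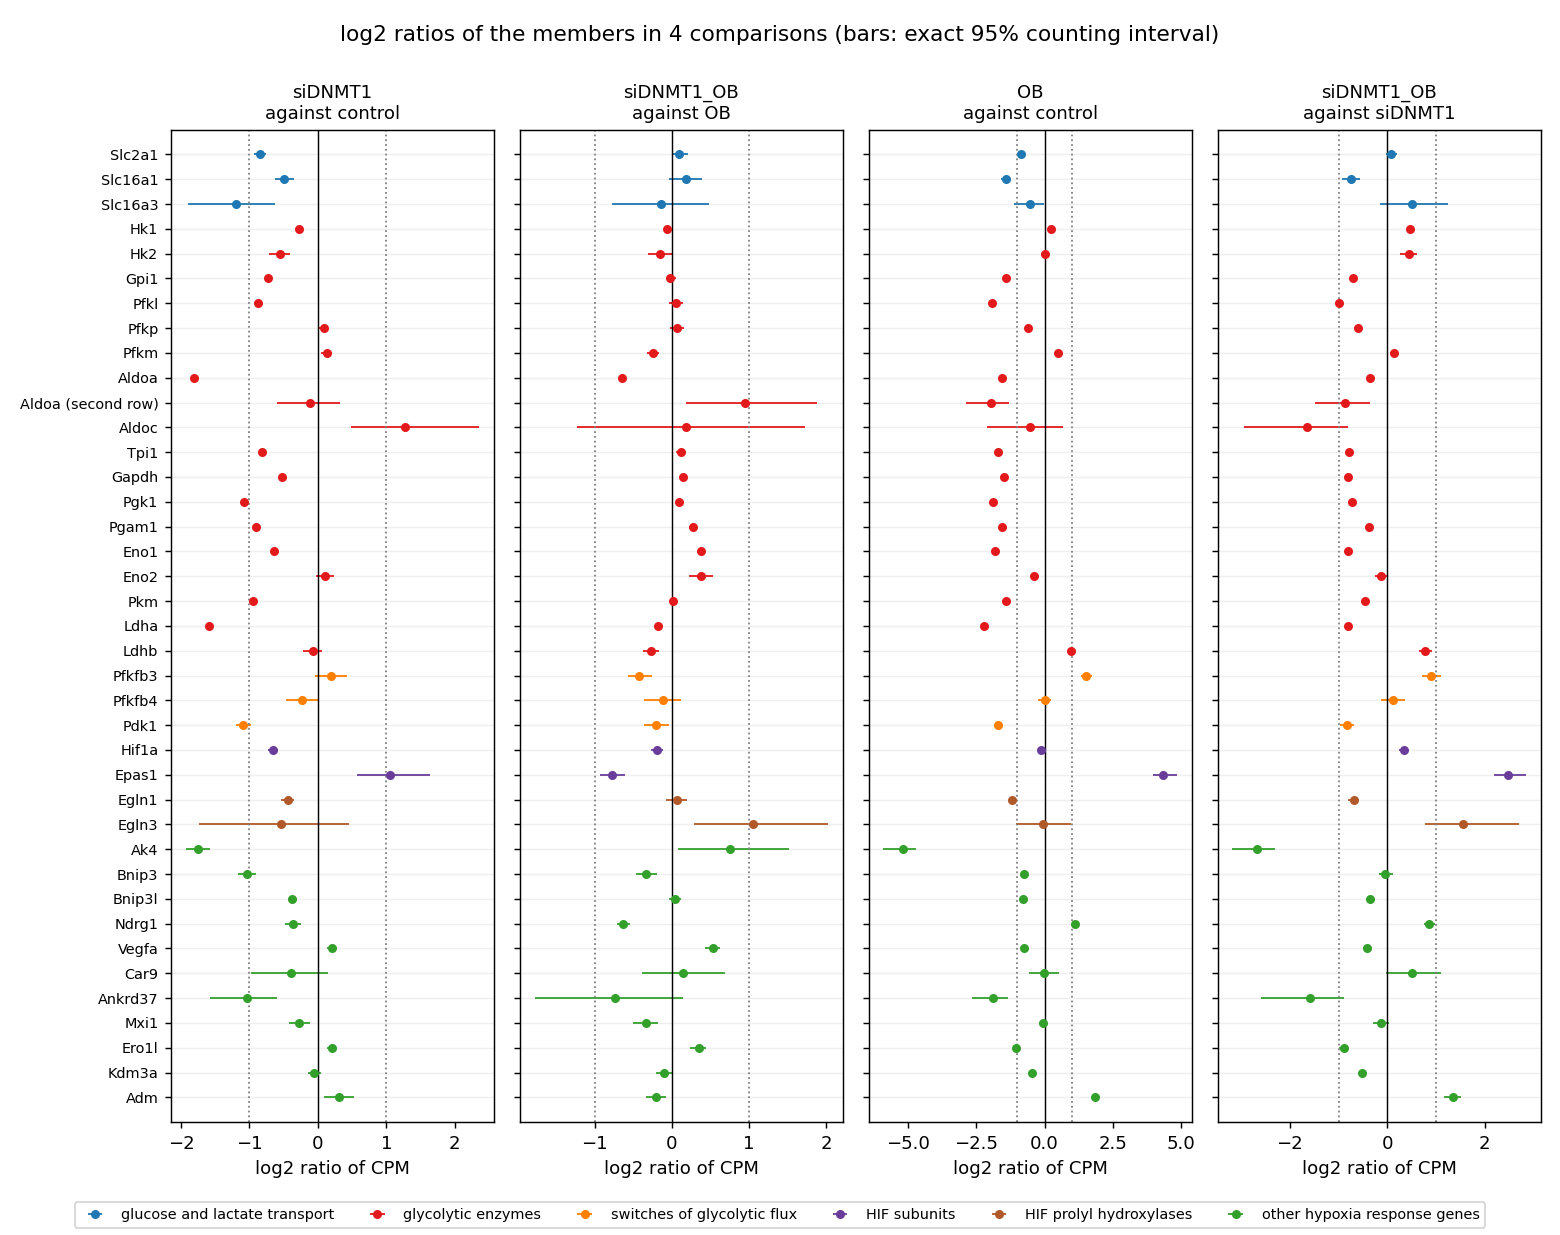
log2 ratio of CPM of each member row (horizontal, with a separate scale in each panel) in the comparisons siDNMT1 against control, siDNMT1_OB against OB, OB against control and siDNMT1_OB against siDNMT1, with exact 95% counting intervals and dotted lines at -1 and 1. In the panel of OB against control Ak4 is lowest at -5.18 and Epas1 highest at 4.31; in that of siDNMT1_OB against OB all rows that passed the filter lie between -0.77 and 0.95.

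Glucose enters these cells through facilitative transporters, of which Slc2a1 encodes GLUT1. Slc2a1 was at 108 CPM in control, 59.8 CPM in siDNMT1, 59.1 CPM in OB and 63.4 CPM in siDNMT1_OB. Control stood alone and the other 3 libraries lay close together: the log2 ratio was -0.85 (-0.94 to -0.76) for siDNMT1 against control and -0.87 (-0.96 to -0.78) for OB against control, while the interval held 0 for siDNMT1_OB against OB (0.10, -0.00 to 0.21) and against siDNMT1 (0.08, -0.02 to 0.19). Slc16a1, which encodes the lactate and pyruvate carrier MCT1, was at 37.6, 26.7, 14.1 and 16 CPM in control, siDNMT1, OB and siDNMT1_OB. It followed another order, with OB induction giving the lower levels (-1.40, interval -1.59 to -1.23, with control siRNA). Slc16a3, encoding the lactate exporter MCT4, was close to the filter at 2.88, 1.21, 1.95 and 1.76 CPM in the same order, from 78, 31, 44 and 47 counts.

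Hexokinase, which traps glucose as glucose-6-phosphate, was the only step that was not lower in OB than in control. It was also not lower in siDNMT1_OB than in siDNMT1, and there glucose transport (Slc2a1) was not lower either. Hk1, the broadly expressed isozyme, was at 268 CPM in control, 221 CPM in siDNMT1, 318 CPM in OB and 306 CPM in siDNMT1_OB. It was highest in the libraries of induced cells, with a log2 ratio of 0.25 (0.20 to 0.29) for OB against control. Hk2, the inducible isozyme and a HIF target, was at 29.4 CPM in control and 30 CPM in OB, a log2 ratio of 0.03 (-0.12 to 0.18), with 19.9 CPM in siDNMT1 and 27 CPM in siDNMT1_OB. Per kb of transcript the summed hexokinase level was 80.3% (siDNMT1), 116% (OB) and 111% (siDNMT1_OB) of control.

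Of the next enzymes, Gpi1 and Pfkl were lower than control in all 3 other libraries. Gpi1, glucose-6-phosphate isomerase, was at 391, 236, 146 and 145 CPM in control, siDNMT1, OB and siDNMT1_OB. Pfkl, the liver-type phosphofructokinase, was at 277, 152, 72.7 and 75.7 CPM, a 3.81-fold lower level in OB than in control. Pfkp, the platelet type, was at 125, 132, 82.5 and 86.4 CPM, and Pfkm, the muscle type, at 80.1, 87.4, 113 and 95.7 CPM. The phosphofructokinase genes differed among themselves: Pfkl and Pfkp were lower after induction and Pfkm was higher (0.49, 0.41 to 0.58). Per kb, Pfkl was at 41.5 and Pfkm at 24 CPM in control, whereas Pfkm was above Pfkl in the other 3 libraries, at 26.2 and 22.7 CPM per kb in siDNMT1, 33.7 and 10.9 in OB, and 28.7 and 11.3 in siDNMT1_OB. In siDNMT1 this order rests on the division by length, since Pfkl held 3885 and Pfkm 2238 counts there.

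Aldoa (ENSMUSG00000030695, chr7:126795234-126800751, GRCm38), the main aldolase, was at 1026 CPM in control, 292 CPM in siDNMT1, 353 CPM in OB and 226 CPM in siDNMT1_OB, from 27824, 7470, 7973 and 6058 counts. It had the lowest log2 ratio of the members for siDNMT1 against control, -1.81 (-1.85 to -1.78), and it was lower also for the library labelled siDNMT1_OB against OB, -0.64 (-0.69 to -0.59). The second Aldoa row (ENSMUSG00000114515, chr7:126800790-126809108) held 89, 77, 18 and 43 counts, and Aldoc held 15, 37, 8 and 11 counts. Per kb the aldolase level was 28.5% (siDNMT1), 34.4% (OB) and 22.1% (siDNMT1_OB) of control, and aldolase and hexokinase were the only steps with a lower level in siDNMT1 than in OB.

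The enzymes from triose phosphates to pyruvate were, with Aldoa and Ldha, the most abundant members, from 222 CPM per kb (Tpi1) to 650.2 CPM per kb (Pgk1) in control. Tpi1, triosephosphate isomerase, was at 612, 348, 186 and 202 CPM in control, siDNMT1, OB and siDNMT1_OB. Gapdh, which makes the NADH of glycolysis, was at 1547, 1080, 557 and 617 CPM. Its OB level was 2.78-fold lower than control, with a log2 ratio of -1.47 (-1.50 to -1.45). The RT-qPCR values of the study were set relative to Gapdh. Pgk1 (ENSMUSG00000062070, chrX:106187100-106203699), phosphoglycerate kinase, was at 1459, 691, 394 and 419 CPM, and Pgam1, phosphoglycerate mutase, at 713, 381, 243 and 294 CPM. Eno1, enolase, was at 1561, 998, 441 and 575 CPM, while Eno2, the neuronal type, stayed between 25.8 and 36.5 CPM. Pkm, pyruvate kinase, was at 2465, 1273, 919 and 933 CPM. For each of Tpi1, Gapdh, Pgk1, Pgam1, Eno1 and Pkm control was highest and siDNMT1 second, and the OB libraries were lowest. OB against control gave log2 ratios from -1.89 (Pgk1) to -1.42 (Pkm), and siDNMT1 against control from -1.08 (Pgk1) to -0.52 (Gapdh).

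Lactate dehydrogenase is a tetramer of LDHA and LDHB subunits. Ldha (ENSMUSG00000063229, chr7:46841475-46855627) was at 1429 CPM in control, 476 CPM in siDNMT1, 309 CPM in OB and 272 CPM in siDNMT1_OB. It was 3-fold lower in siDNMT1 and 4.63-fold lower in OB than in control, with log2 ratios of -1.59 (-1.62 to -1.56) and -2.21 (-2.25 to -2.18). Ldhb was at 34.4, 32.7, 67.8 and 56.2 CPM, so it was higher in both OB libraries, with log2 ratios of 0.98 (0.86 to 1.10) for OB against control and 0.78 (0.66 to 0.91) for siDNMT1_OB against siDNMT1. Per kb, the Ldhb share of both transcripts was 4.82% (4.53 to 5.13) in control and 12.6% (11.9 to 13.4) in siDNMT1, and it reached 31.7% (30.5 to 32.9) in OB and 30.3% (29.1 to 31.5) in siDNMT1_OB.

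**Figure D3:**
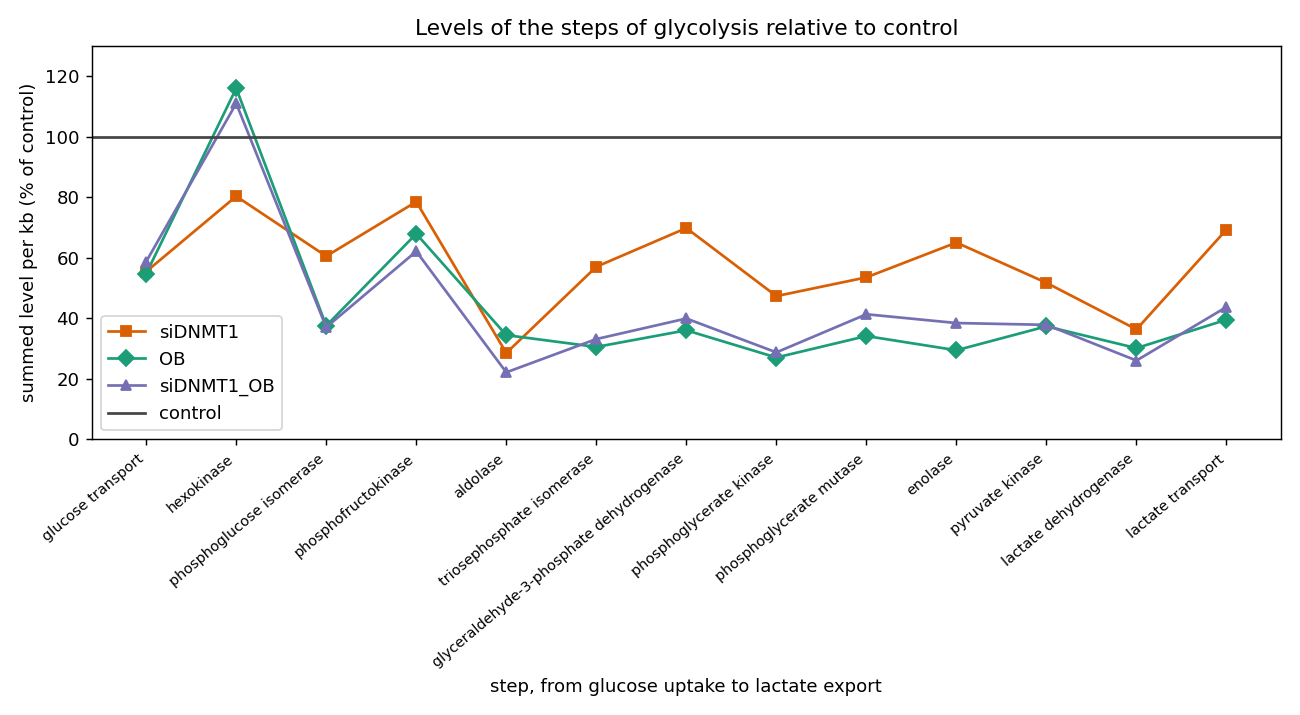
Summed level per kb of the members at each step of glycolysis, from glucose uptake to lactate export (horizontal), as a percentage of control (vertical, control drawn at 100) in siDNMT1 (orange squares), OB (green diamonds) and siDNMT1_OB (purple triangles). Hexokinase is the only step above control, at 116% in OB and 111% in siDNMT1_OB; phosphoglycerate kinase is lowest in OB at 27%, and aldolase lowest in siDNMT1 at 28.5%.

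The genes that set flux into and out of glycolysis differed among themselves. Pfkfb3 makes fructose-2,6-bisphosphate, the activator of phosphofructokinase, and stood at 11.1, 12.7, 31.8 and 23.8 CPM in control, siDNMT1, OB and siDNMT1_OB. It was 2.86-fold higher in OB than in control (log2 ratio 1.51, 1.32 to 1.72). Its relative Pfkfb4 stayed between 10.3 and 12.2 CPM in all 4 libraries. Pdk1, pyruvate dehydrogenase kinase, holds pyruvate back from the mitochondria, and it was at 91.5, 43.1, 28 and 24.4 CPM. Its log2 ratio was -1.09 (-1.19 to -0.98) for siDNMT1 against control and -1.71 (-1.84 to -1.58) for OB against control. The other kinases of this family, which are not members, were lower than control in siDNMT1 by less than Pdk1, with log2 ratios of -0.34 (Pdk2), -0.25 (Pdk3) and -0.18 (Pdk4). In OB they were not lower as Pdk1 was: Pdk4 was at 170.0 CPM in control and 412 CPM in OB, Pdk2 at 10.6 and 24.9 CPM, and Pdk3 at 49.4 and 48.3 CPM. Per kb, Pdk1 was at 11.8 and Pdk4 at 48.4 CPM in control, and at 3.6 and 117 CPM in OB.

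Hif1a and Epas1 encode HIF-1 alpha and HIF-2 alpha, whose activity is controlled chiefly at the protein level, which was not measured here. Hif1a was at 131 CPM in control, 82.9 CPM in siDNMT1, 119 CPM in OB and 105 CPM in siDNMT1_OB. The siDNMT1 library was lowest (-0.65, -0.73 to -0.58, against control) and OB was near control (-0.13, -0.20 to -0.06). Epas1 (ENSMUSG00000024140, chr17:86753907-86833410) was at 1.7, 3.63, 35.2 and 20.6 CPM, from 46, 93, 796 and 552 counts. It was 20.8-fold higher in OB than in control (log2 ratio 4.31, 3.95 to 4.84) and 5.68-fold higher in siDNMT1_OB than in siDNMT1 (2.48, 2.19 to 2.84). Epas1 was higher in siDNMT1 than in control (1.06, 0.57 to 1.64) and lower in the library labelled siDNMT1_OB relative to OB (-0.77, -0.93 to -0.61). Per kb, Epas1 made up 1.42% (1.04 to 1.89) of Hif1a and Epas1 together in control and 4.64% (3.76 to 5.65) in siDNMT1. This share was 24.7% (23.2 to 26.2) in OB and 18% (16.6 to 19.3) in siDNMT1_OB.

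Egln1 encodes PHD2, the main HIF prolyl hydroxylase, and Egln3 the hypoxia-induced PHD3. Egln1 was at 82.8, 60.9, 36.1 and 37.8 CPM in control, siDNMT1, OB and siDNMT1_OB, and its log2 ratio for OB against control was -1.19 (-1.31 to -1.08). Egln2, not a member, stayed between 58.6 and 66.4 CPM, so that per kb Egln1 and Egln2 were at 23 and 22.4 CPM in control but at 10.1 and 23.7 CPM in OB. Egln3 had 21, 13, 17 and 44 counts and did not pass the filter.

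**Figure D4:**
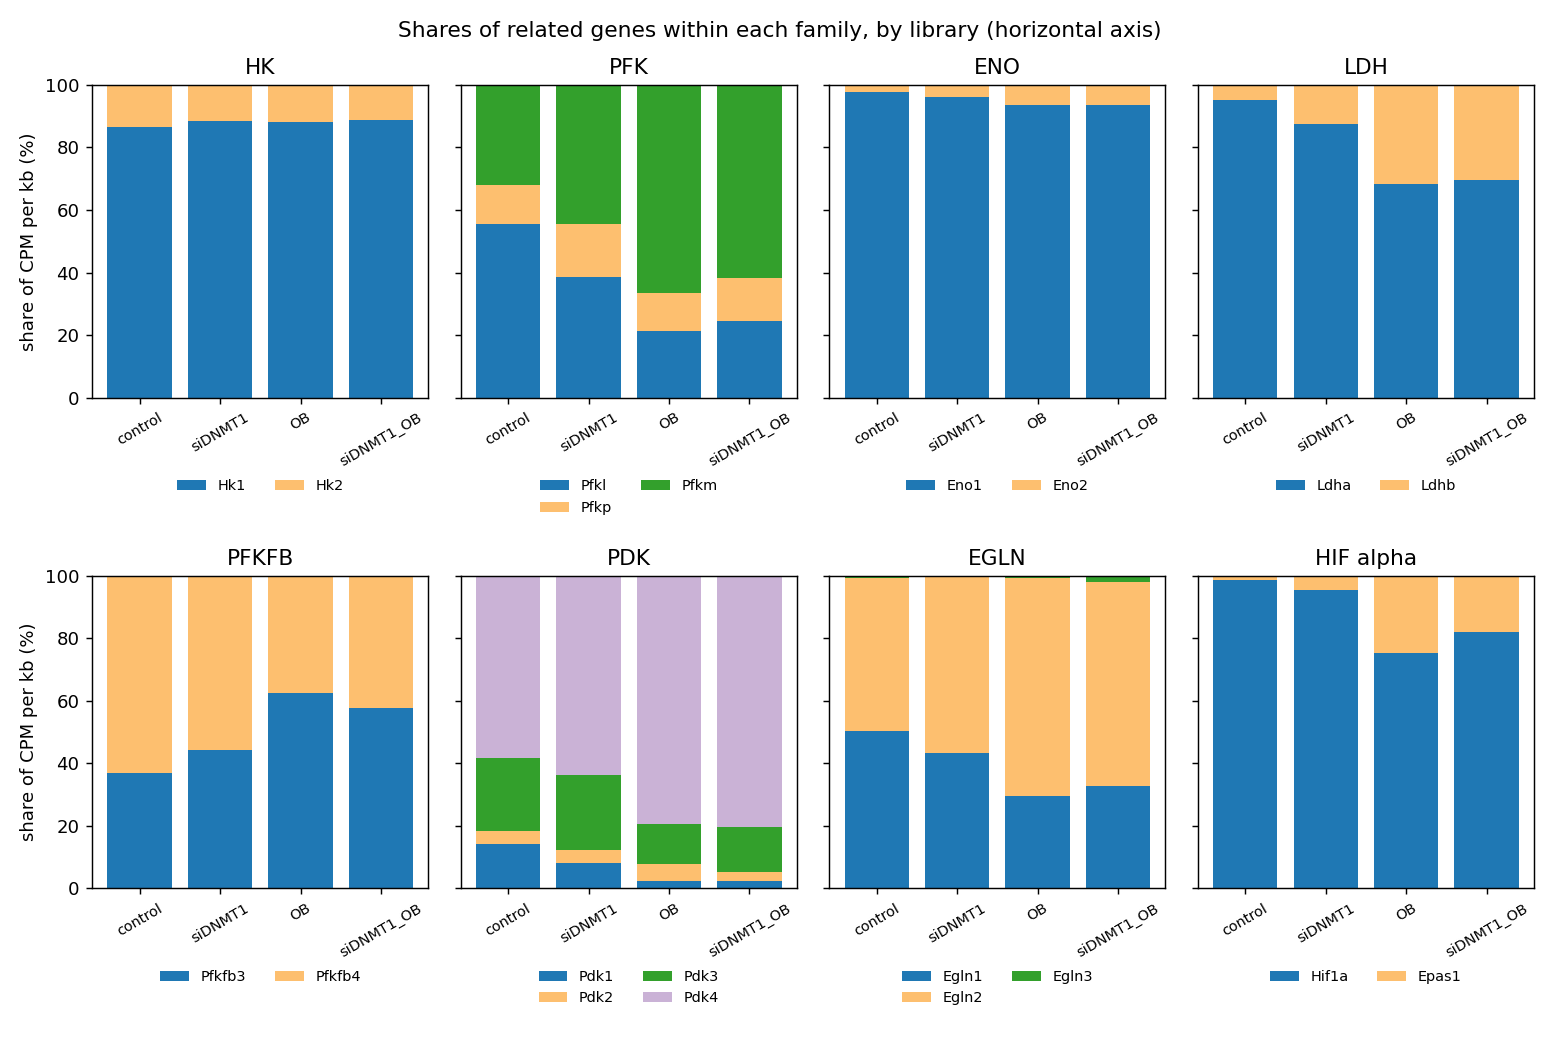
Share of each gene in the summed CPM per kb of the genes drawn for its family (vertical, %) in the 4 libraries (horizontal), for hexokinase, phosphofructokinase, enolase, lactate dehydrogenase, PFKFB, PDK, EGLN and the HIF alpha subunits. Non-members are drawn for PDK and EGLN only, so Eno3, Pfkfb1, Pfkfb2 and Hif3a are among those left out. In control Eno3 was at 10.6 CPM per kb, beside 7.21 for Eno2, and Pfkfb2 at 1.99, beside 1.47 for Pfkfb3. Ldhb grows from 4.82% in control to 31.7% in OB and Epas1 from 1.42% to 24.7%, while Hk1 stays between 86.5% and 88.8%.

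Among the other hypoxia response genes, Ak4 had the widest range. Ak4 (ENSMUSG00000028527, chr4:101419277-101466995) encodes a mitochondrial adenylate kinase and was at 44.3 CPM in control, 13.2 CPM in siDNMT1, 1.15 CPM in OB and 1.98 CPM in siDNMT1_OB, from 1202, 337, 26 and 53 counts. Its level in OB was 38.5-fold lower than in control, and the log2 ratio of -5.18 (-5.89 to -4.71) was the lowest of the 13233 genes. It was also lower in siDNMT1 than in control (-1.75, -1.93 to -1.58) and in siDNMT1_OB than in siDNMT1 (-2.68, -3.18 to -2.31). Ak5, a cytosolic adenylate kinase and not a member, was at 4.28, 12.8, 1.59 and 4.67 CPM in the same order of libraries, so it was higher in siDNMT1 than in control and in the library labelled siDNMT1_OB relative to OB. Ankrd37, an ankyrin repeat gene and HIF target, was at 4.35, 2.07, 1.11 and 0.635 CPM, from 118 counts in control to 17 in siDNMT1_OB.

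Bnip3 and Bnip3l, receptors for the removal of mitochondria, were both highest in control. Bnip3 was at 62.2, 30.3, 37.1 and 29.5 CPM in control, siDNMT1, OB and siDNMT1_OB. Control stood apart from the lower 3 libraries (-1.03, -1.16 to -0.91, for siDNMT1 against control). Bnip3l was at 163, 125, 94.9 and 97.7 CPM. Pink1, a kinase of another mitophagy route and not a member, was at 20.8, 28.4, 55.9 and 43.8 CPM, the opposite order after induction.

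Both secreted vascular factors among the members differed in direction after induction. Vegfa, the vessel growth factor, was at 106, 122, 63.1 and 91.1 CPM in control, siDNMT1, OB and siDNMT1_OB. It was lower in OB than in control (-0.74, -0.83 to -0.65) and in siDNMT1_OB than in siDNMT1 (-0.42, -0.50 to -0.34). It was higher in siDNMT1 than in control (0.21, 0.13 to 0.28) and in the library labelled siDNMT1_OB relative to OB (0.53, 0.43 to 0.62). Adm, the vasodilator adrenomedullin, was at 12, 14.9, 43.5 and 37.7 CPM, 3.63-fold higher in OB than in control (1.85, 1.68 to 2.04). Ero1l, an oxidase of protein folding in the endoplasmic reticulum, was at 113, 130.3, 55.2 and 70.1 CPM, and its log2 ratio of -1.03 for OB against control lay just past the size threshold. Vegfa and Ero1l shared their order of libraries, with siDNMT1 highest and OB lowest.

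Of the remaining hypoxia genes, Ndrg1, a stress-induced gene, was higher in OB at 51.1, 39.7, 111 and 72.1 CPM in control, siDNMT1, OB and siDNMT1_OB (1.12, 1.03 to 1.22, for OB against control), and it was lower in siDNMT1 than in control and in the library labelled siDNMT1_OB relative to OB. Mxi1, an antagonist of MYC, lay between 22.9 and 30.3 CPM, and Kdm3a, a histone H3K9 demethylase, between 54.6 and 80.4 CPM. Car9, encoding carbonic anhydrase IX and often used as a marker of low oxygen, stayed between 1.83 and 2.65 CPM from 47 to 71 counts, and each of its comparisons had an interval that held 0.

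The siDNMT1 comparisons in untreated and in induced cells, which together use all 4 libraries, were set against each other by the labels. The difference of the log2 ratios, siDNMT1_OB against OB minus siDNMT1 against control, was at least 1 for 8 member rows and at most -1 for 1, beside 3.27% and 2.95% of all genes, with a median of 0.51 (0.00 over all genes). The 8 rows were Slc16a3 (1.06), both Aldoa rows (1.18 for the main row and 1.07 for the second), Pgk1 (1.17), Pgam1 (1.18), Eno1 (1.03), Ldha (1.41) and Ak4 (2.49), and the row below -1 was Epas1 (-1.83, interval -2.43 to -1.32). For siDNMT1 against control the interval of 24 rows lay below 0, beside 26.8% of all genes (not matched for depth). Of these 24, 9 also lay below 0 in induced cells, 9 held 0 and 6 lay above it, beside 31.7%, 38.8% and 29.5% of all genes that lay below 0 in untreated cells, so these counts were near the background. The 6 were Tpi1, Gapdh, Pgk1, Pgam1, Eno1 and Ak4, whose ratios in induced cells were small, from 0.09 (Pgk1) to 0.75 (Ak4). The 9 rows below 0 in both states were Aldoa, Ldha, Hk1, Hk2, Pdk1, Hif1a, Bnip3, Ndrg1 and Mxi1. Dnmt1 was lower in siDNMT1 than in control but not in the library labelled siDNMT1_OB relative to OB, and any link was not tested. Over the same comparison the 14 proliferation genes had a median difference of 1.16, with a median log2 ratio of -0.25 in untreated and 0.99 in induced cells. Dnmt1 had a difference of 1.13. Their part in the differences of the glycolytic genes was not tested.

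**Figure D5:**
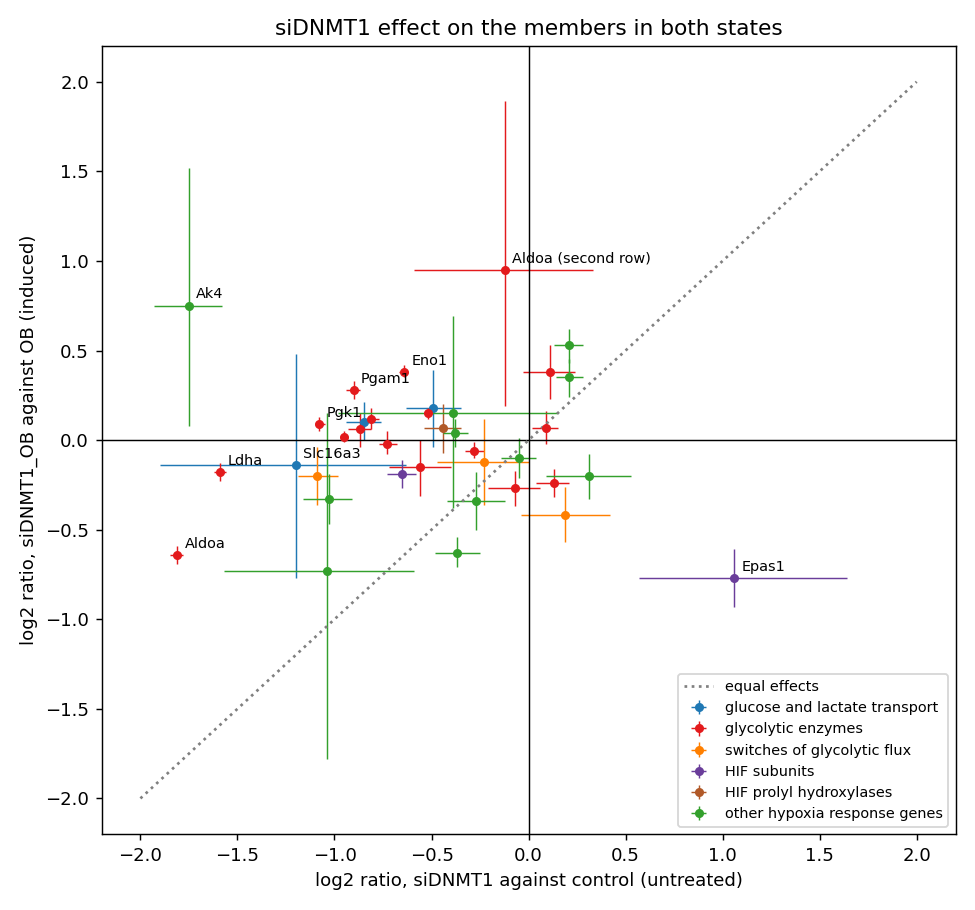
log2 ratio of each member row that passed the filter for siDNMT1 against control (horizontal) and for siDNMT1_OB against OB (vertical), with exact 95% counting intervals, colours by role and a dotted line of equal ratios; names mark rows whose ratios differ by 1 or more. Most glycolytic enzymes lie left of 0 and near 0 vertically, with Aldoa at -1.81 and -0.64, Ak4 at -1.75 and 0.75, and Epas1 at 1.06 and -0.77.

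Other genes of the same pathways, on 7 lists of 128 symbols of which 127 were in the table, gave a background for the members. On the list of pyruvate entry and the TCA cycle, which oxidizes acetyl-CoA in mitochondria, all 25 genes found passed the filter. In OB against control 2 were higher and none lower by the size threshold (median -0.10). There the interval of 13 lay below 0 and that of 7 above it, beside 4931 and 4908 of all 13233 genes. For siDNMT1 against control 18 lay below 0 and 1 above it, beside 3548 and 3441 of all genes. The summed level of the list was 101% of control in OB and 88.9% in siDNMT1. The 7 pentose phosphate genes had no ratio of that size in any comparison, with a median of -0.36 in OB against control. Of 27 other hypoxia response genes that passed the filter, 8 were lower and 2 higher in OB against control (median -0.08). P4ha1, a collagen prolyl hydroxylase, was at 281, 178, 79.7 and 91.7 CPM in control, siDNMT1, OB and siDNMT1_OB, and Mif, a cytokine, at 411, 221, 91.7 and 121 CPM. Fam162a was at 114, 50.6, 35.9 and 33.1 CPM. Lox, which crosslinks collagen, was at 1839, 1959, 5318 and 4505 CPM. Angptl4, a lipase inhibitor, was at 11 CPM in control and 4.37 CPM in siDNMT1, and at 12.1 CPM in OB and 4.63 CPM in the library labelled siDNMT1_OB. Hypoxia genes outside the members lay on both sides after induction.

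Of 11 HIF partners and regulators, 1 was higher and none was lower by the size threshold in OB against control. Arnt, the partner subunit, stayed between 77.6 and 94.3 CPM, and Vhl, which targets hydroxylated HIF alpha for degradation, between 32.8 and 35.2 CPM. Hif3a, a further alpha subunit that can oppose the others, had 0 counts in control and siDNMT1, 240 in OB and 199 in siDNMT1_OB. Among 8 glucose-sensing and MYC-type regulators that passed the filter, Txnip, which restrains glucose uptake, was at 60.4, 93.5, 119.7 and 107 CPM, Myc at 44.6, 41.1, 20.7 and 27.5 CPM, and its antagonist Mxd4 at 121, 169, 318 and 267 CPM. Of 17 other glycolysis, gluconeogenesis and glycogen genes, 2 were lower and 1 was higher in OB against control (median -0.22); the higher one was Ppp1r3c, a glycogen-targeting phosphatase subunit, at 0.406 CPM in control and 6.41 CPM in OB. One of the lower genes, Eno1b (-1.85), is a 99.5% identical copy of Eno1 whose counts may include Eno1 reads, and without it 1 of 16 was lower and the median was -0.15.

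Levels of some members depend on how reads with several positions were counted, which was not given in the sources used here. Transcripts at least 95% identical over at least 200 bases were found at 78 other genes for Gapdh, and these held 240628 counts in control, 574% of those of Gapdh itself. For Eno1 3 such copies held 57.1% and for Pgam1 1 copy held 10.4% of its control counts. Adding the copies left the OB against control ratio at -1.51 for Gapdh, -1.84 for Eno1 and -1.54 for Pgam1. The levels of these genes are uncertain, while the ratios without the copies were -1.47, -1.82 and -1.55. Aldoa, Pfkl, Pdk1 and Epas1 had no such copy, and for Ldha and Pgk1 the copies held under 1% of the gene's counts. Without strand, reads from exons shared with a gene on the other strand cannot be told apart, which concerned 14 of the 38 members. The share of the exon length was largest for Ankrd37 (22.7% with Lrp2bp, 16 counts in control, and 3.7% with Ufsp2, 1416 counts, beside 118 for Ankrd37 itself) and Bnip3 (22.3%, with a gene at 0 counts in every library). It was 11.5% for Gpi1, 9.29% for Car9, 6.35% for Ndrg1, 5.6% for Hif1a and 5.58% for Pfkp (Pitrm1, 3246 counts in control), and below 5% for the other members concerned. Of the Pkm exon length 15.3% was shared with another gene row on the same strand, which held 2156 counts in control, and of that of Pfkm 10.2% (6 counts in control).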

How the data were processed

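RNA-seq was analysed from 4 libraries of C3H10T1/2 cells, 1 per group by the sample titles. The authors deposited whole-number read counts per gene with gene positions and lengths. Poly(A) RNA libraries were made with a TruSeq protocol, and the submitters' processing notes name Trimmomatic, HISAT2, featureCounts and the mm10 build. Versions, strand use and the setting for multi-mapping reads were not given in the sources used here.

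A gene was kept if its CPM averaged at least 1 over the libraries (13233 of 54532 rows). TMM factors (edgeR 4.0.16, R 4.3.3) were computed on these genes with full library totals and lay between 0.991 and 1.01. The filter used the totals before scaling. Every other level in CPM uses the scaled totals, which were 27123704, 25620007, 22614894 and 26760025 in control, siDNMT1, OB and siDNMT1_OB. log2 ratios used a prior count of 2. The interval of a ratio is the exact (Clopper-Pearson) 95% interval of its pair of counts, that of a level is an exact Poisson interval, and that of a difference of ratios combines both. Reads carried no molecular identifiers, so intervals cover counting error only. With 1 library a group no difference had replicates, and no test was run and no p-value is given. A fit of siRNA and induction as additive effects, which would leave 1 residual degree of freedom, was not made. A gene was counted as changed at a log2 ratio of 1 or more in size. CPM per kb used the deposited gene length. Near-identical copies were searched with BLAST+ 2.17.0 among GENCODE M21 transcripts, and promoter sequences came from RefSeq (GRCm38.p6). The ratio script was checked on simulated data.

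All members were named. From each list of other pathway genes and of markers, genes could be named if among the 3 furthest from 0 in a comparison, and Arnt, Vhl, Egln2, Col1a1, Pdk3, Alpl, Bglap, Bglap2, Sp7, Ibsp and Runx2 were added after their values were seen. Members and lists were chosen with earlier results of these data known. Pc, on the list of pyruvate genes, was not analysed here. Alternatives were other scalings, prior counts, filters and, for shares within families, counts without length.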

Additional observations from a re-analysis of the deposited data

Results flagged for a closer look

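For 10 of the 37 member rows the counting intervals of a matched pair of effects excluded 0 on opposite sides, beside 14.8% of all 13233 genes (not matched for depth). The difference itself was not tested, because each group held 1 library, and the values are given without an explanation. The library labelled siDNMT1_OB held no less Dnmt1 than OB. Between siDNMT1 against control and siDNMT1_OB against OB, the log2 ratio went from -0.81 to 0.12 for Tpi1 (a difference of 0.93), from -0.52 to 0.15 for Gapdh (0.67), from -1.08 to 0.09 for Pgk1 (1.17), from -0.90 to 0.28 for Pgam1 (1.18), from -0.64 to 0.38 for Eno1 (1.03) and from -1.75 to 0.75 for Ak4 (2.49). It went the other way for Pfkm, from 0.13 to -0.24 (-0.36), for Epas1, from 1.06 to -0.77 (-1.83), and for Adm, from 0.31 to -0.20 (-0.51). For Hif1a the OB effect was -0.13 with control siRNA and 0.34 for the library labelled siDNMT1_OB against siDNMT1, a difference of 0.47.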

How the results depend on the processing

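No paired analysis was possible because the groups compared share only 1 replicate number, and leaving out a library would remove its group. The alternatives were scaling by total counts, upper quartiles or DESeq2 size factors, prior counts of 0.5 and 5, other filters and calls by size plus interval. A change of sign was checked only for the 44 member values past the size threshold, and none of them reversed. Calls by size plus interval were applied to counts of genes only, and the signs of smaller ratios were not followed. TMM factors from all rows and counts with near-identical copies added were chosen after seeing the data. Of the summary values recomputed, 225 stayed within their limits and 59 moved. Without a filter beyond 1 count, 2 member rows were higher in siDNMT1 against control, 1 was higher in siDNMT1_OB against OB, and 2 had a difference of -1 or less. Over all genes the counts higher and lower were then 1379 and 1219 (siDNMT1 against control), 1381 and 1892 (siDNMT1_OB against OB), 4080 and 2062 (OB against control), 2550 and 1316 (siDNMT1_OB against siDNMT1) and 2420 and 2965 (the difference). With a mean CPM of at least 5 they were 110 and 91, 185 and 72, 825 higher (OB against control), 509 and 229, and 267 and 131, because fewer genes were tested. The main counts were 261 and 181, 312 and 181, 1404 and 940, 904 and 358, and 433 and 391. The summed glycolytic enzymes relative to control became 54.1% (total counts) and 54.6% (upper quartile) in siDNMT1, 36.2%, 36.5% and, with TMM over all rows, 34.3% in OB, and 37.1% (upper quartile) and 35.5% (TMM over all rows) in siDNMT1_OB. Without length, the shares in control, siDNMT1, OB and siDNMT1_OB were 90.1%, 91.7%, 91.4% and 91.9% for Hk1, and 16.6%, 23.5%, 42.1% and 37.1% for Pfkm. In the same order they were 2.13%, 3.53%, 5.54% and 5.52% for Eno2 (of Eno1 and Eno2), and 2.35%, 6.42%, 18% and 17.1% for Ldhb. They were 47.7%, 55.1%, 72.2% and 67.9% for Pfkfb3 (of Pfkfb3 and Pfkfb4), 28.5%, 17.8%, 5.46% and 5.4% for Pdk1, and 56.6%, 49.5%, 35% and 38.6% for Egln1. Epas1 stood at 22.8% in OB and 16.5% in siDNMT1_OB. Non-members entered only the families of Pdk1 and Egln1. Eno3 was left out, with 502 counts in control and 918 in siDNMT1_OB, beside 920 and 900 for Eno2. Pfkfb1 and Pfkfb2 were left out, with 182 and 391 counts in control, beside 301 for Pfkfb3. With them these shares would be lower. Of 44 member values past the size threshold, 4 fell short of it under some setting when rounded as printed here. One was Ero1l at -0.98 in OB against control (upper quartile). The others, in the difference, were Eno1 at 0.99 (total counts and upper quartile), the second Aldoa row at 0.98 and Slc16a3 at 0.99 (prior count of 5). Pfkl in siDNMT1_OB against siDNMT1 lay too close to the threshold for rounded values to show whether it stayed past it. Depth limits Slc16a3, Car9, Ankrd37, Aldoc, Egln3 and the second Aldoa row, each under 120 counts.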

Other observations

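Single genes of glycogen handling, of the enolases and of the pyruvate dehydrogenase kinases differed in their order of libraries. Ppp1r3c, which directs a phosphatase to glycogen, was at 0.406 CPM in control, 1.76 CPM in siDNMT1, 6.41 CPM in OB and 5.19 CPM in siDNMT1_OB, from 11, 45, 145 and 139 counts. Gbe1, the glycogen branching enzyme, was at 15.1, 5.82, 9.64 and 9.34 CPM, below control in the other 3 libraries and lowest in siDNMT1 (log2 ratio -1.36, -1.65 to -1.10, against control). Eno3, the muscle enolase, was at 18.5, 15, 15.9 and 34.3 CPM and was highest in the library labelled siDNMT1_OB, with a log2 ratio of 1.11 (0.93 to 1.29) against OB. Pdk2 was at 10.6, 8.39, 24.9 and 11.8 CPM, highest in OB. Its log2 ratio was 1.22 for OB against control, 0.49 (0.24 to 0.75) for siDNMT1_OB against siDNMT1, and -1.06 (-1.27 to -0.87) for the library labelled siDNMT1_OB against OB.

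Among the other genes of the hypoxia list, Tfrc and Vldlr were highest in siDNMT1. Tfrc, the transferrin receptor, was at 70, 84.9, 14.9 and 29.6 CPM in control, siDNMT1, OB and siDNMT1_OB, lowest in OB as Vegfa and Ero1l were, and Vldlr, a lipoprotein receptor, at 71.8, 102, 41.7 and 35.9 CPM, lowest in the library labelled siDNMT1_OB. Higd1a, a small mitochondrial protein, was at 51.5 CPM in control and between 23.7 and 26.2 CPM in the other 3 libraries. These values are single-library descriptions, and no explanation for them was tested.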
